A study of Mus musculus with 18 samples.

Results

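The Hox cluster genes encode homeodomain transcription factors that give cells along the head-to-tail axis their positional identity. They were taken as every gene whose symbol is Hox followed by a cluster letter (a, b, c or d) and a paralogue number, which found 39 of the 49315 genes counted. Of these, 11 lie in the HoxA cluster on mouse chromosome 6, 10 in HoxB on chromosome 11, 9 in HoxC on chromosome 15 and 9 in HoxD on chromosome 2 (build GRCm38, GENCODE M21 annotation). RNA was sequenced from dissected hearts of wild-type C57BL/6 embryos at E9.5 (3 libraries), E10.5 (4), E12.5 (4), E14.5 (3) and E16.5 (4). E9.5 stands for 9.5 days of embryonic development, and the other stages are written likewise. The labels give male and female embryos as pooled, name no treatment or altered allele, and do not say whether the libraries came from separate litters. Test results therefore rest on the spread among the libraries of a stage, part of which may be technical.

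Within a cluster the genes all point the same way, and low-numbered (3′) genes are in general switched on earlier and farther forward in the embryo than high-numbered ones, an order called collinearity. Retinoic acid, made by Aldh1a enzymes and degraded by Cyp26 enzymes, induces the 3′ genes, and Hox proteins bind DNA together with the cofactors Pbx and Meis. In the developing heart, low-numbered Hox genes such as Hoxb1 and Hoxa3 are known from progenitors of the second heart field, which build the outflow tract and part of the atria, and Hox genes also mark neural crest cells that migrate into the heart.

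The upstream sequences of the members with the largest changes are shown because the results turn on them: Hoxb1, highest at E9.5, Hoxd3 and Hoxd4, first clearly counted at E12.5, and Hoxd8, highest at E16.5. Each is the longest stretch without an annotated exon in the 250 bases before the gene's RefSeq start (GRCm38.p6, plus strand), read 5′ to 3′. Capitals mark 2 motifs searched on both strands, TGATNNAT for a joint Pbx and Hox site and AGGTCA for a nuclear receptor half-site of the kind retinoic acid receptors bind (TGACCT on the other strand). The genes are Hoxb1 (ENSMUSG00000018973), Hoxd3 (ENSMUSG00000079277), Hoxd4 (ENSMUSG00000101174) and Hoxd8 (ENSMUSG00000027102). The Hoxb1 stretch is chr11:96365508-96365751, the Hoxd3 stretch chr2:74711743-74711926, the Hoxd4 stretch chr2:74721728-74721977 and the Hoxd8 stretch chr2:74704365-74704614.
Hoxb1: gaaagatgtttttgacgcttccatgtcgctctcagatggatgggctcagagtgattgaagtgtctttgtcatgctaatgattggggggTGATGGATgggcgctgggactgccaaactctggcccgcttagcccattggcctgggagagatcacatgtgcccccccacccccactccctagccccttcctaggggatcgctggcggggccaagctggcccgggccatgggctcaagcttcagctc
Hoxd3: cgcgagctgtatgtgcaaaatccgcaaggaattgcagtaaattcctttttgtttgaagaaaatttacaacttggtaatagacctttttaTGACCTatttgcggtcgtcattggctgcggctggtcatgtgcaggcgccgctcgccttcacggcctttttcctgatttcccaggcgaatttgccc
Hoxd4: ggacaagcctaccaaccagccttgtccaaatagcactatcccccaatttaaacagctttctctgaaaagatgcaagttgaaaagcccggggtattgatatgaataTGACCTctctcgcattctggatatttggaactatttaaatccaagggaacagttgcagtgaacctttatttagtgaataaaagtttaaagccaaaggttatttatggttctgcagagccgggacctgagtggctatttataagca
Hoxd8: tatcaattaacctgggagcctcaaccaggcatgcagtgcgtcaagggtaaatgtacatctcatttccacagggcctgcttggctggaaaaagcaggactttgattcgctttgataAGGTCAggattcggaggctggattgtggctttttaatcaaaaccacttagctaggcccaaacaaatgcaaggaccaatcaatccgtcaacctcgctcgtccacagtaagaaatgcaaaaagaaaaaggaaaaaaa
RefSeq start windows matched 22 of the 39 members. TGATNNAT stood in the 250 upstream bases of 4 of these 22 genes (Hoxa2, Hoxb1, Hoxb8 and Hoxd11) and in 7.68% of all 32851 windows. AGGTCA stood in 6 of the 22 (Hoxb4, Hoxc4, Hoxd3, Hoxd4, Hoxd8 and Hoxd10) and in 14% of all windows. A match describes these letters and shows no binding.

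Library totals ran from 30744015 to 45646538 counts, and 371 to 997 counts a library fell in Hox cluster genes. A gene with no count in a library can be at up to 0.0657 to 0.0976 CPM there, CPM being counts normalised to library size, taking 3 counts as the limit and counting error alone. The heart label was matched by cardiomyocyte markers (7 of 7 counted, summed level 15400 to 28000 CPM). In 5 libraries (E9.5 replicates 2 and 3, E10.5 replicates 1 and 2, and E12.5 replicate 4) 8 macrophage-type transcripts such as Chil3 and Mmp12 summed to 0.582 to 2.75 CPM, against 341 to 689 CPM in the other 13. The labels do not name such a division, so the Hox results are given with all 18 libraries and, where the call or size changes, without these 5. Without them E9.5 is left with 1 library, which the model assumes to vary like the other stages. Within the 5 alone, E12.5 is likewise left with 1 library. Below, CPM is scaled by TMM, RPKM is CPM per kilobase of exon and compares levels between genes, and a gene rose or fell where edgeR's quasi-likelihood test gave a Benjamini-Hochberg adjusted p under 0.05 over all 18885 genes tested. These are whole hearts, so fewer cells expressing a gene and less RNA per cell cannot be told apart.

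Hox genes were expressed at low levels, mainly from the 3′ parts of HoxA and HoxB. The median gene tested had a mean of 3.24 RPKM over the 18 libraries. The highest Hox genes of their clusters were Hoxb4 at 1.28 RPKM, Hoxa5 at 0.616, Hoxd8 at 0.184 and Hoxc4 at 0.168. After Hoxb4 came Hoxb2, whose level was above that of 29.8% of the genes tested. Hoxb3 had 0.64 RPKM, Hoxa4 0.463, Hoxa2 0.399 and Hoxa3 0.293. In all, 8 members had at least 9 counts in every library, Hoxa2 to Hoxa5 and Hoxb2 to Hoxb4 among them. From paralogue 6 on, Hoxd8 alone exceeded a mean of 0.1 RPKM.

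The 5′ end of the clusters was close to silent. Hoxb13, Hoxc11 and Hoxd12 had no count in any of the 18 libraries. A further 9 members (Hoxa6, Hoxa11, Hoxa13, Hoxc8, Hoxc9, Hoxc12, Hoxd10, Hoxd11 and Hoxd13) had at most 3 counts in any library, and in 11 the highest library held 4 to 14. The filter on low counts, which asks for about 0.275 CPM in at least 3 libraries, left 16 members in the test, among them Hoxa2 to Hoxa5, Hoxa9, Hoxb1 to Hoxb4, Hoxb9, Hoxc4, Hoxc5, Hoxd3, Hoxd4 and Hoxd8. Just outside it were Hoxc6 with 2 to 14 counts and Hoxb5 with 1 to 11. Hoxb1 passed through its 3 E9.5 libraries alone, so a stage difference was built into its passing. Likewise Hoxb9, Hoxd3, Hoxd4 and Hoxd8 reached this level only in libraries of E12.5 or later, and Hoxc5 only in libraries of E12.5 or earlier. Counts over the 16 describe only those 16.

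**Figure D1:**
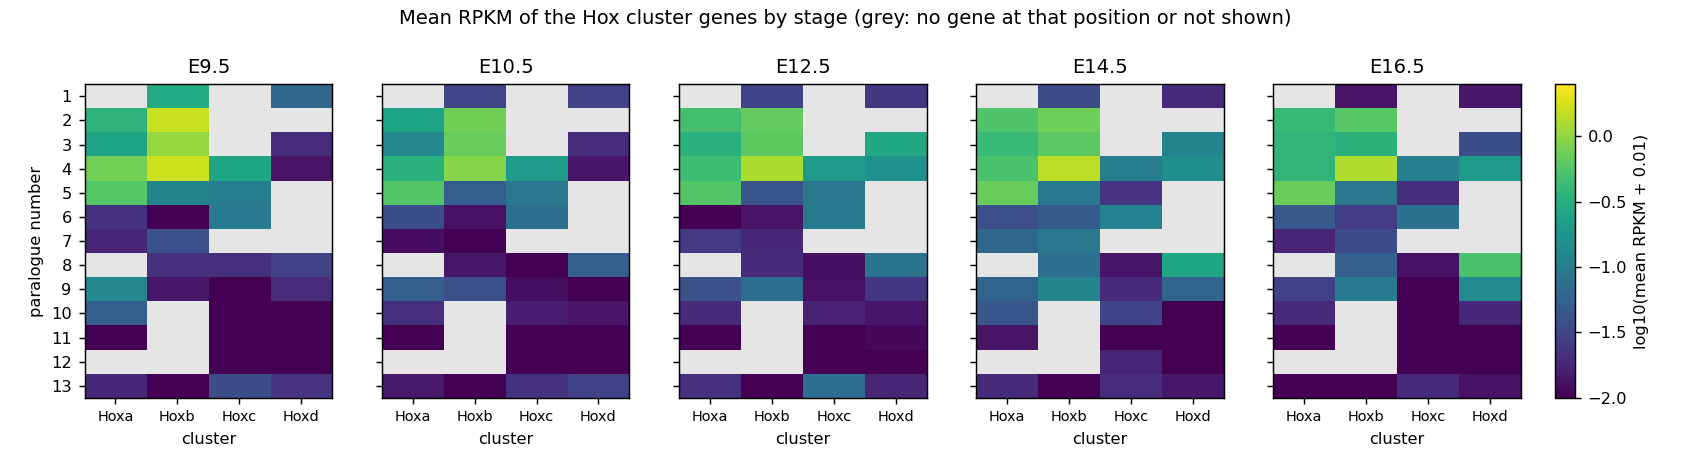
Mean level of the Hox cluster genes at each stage, as log10 of mean RPKM plus 0.01, with clusters across and paralogue numbers down; grey marks positions where the cluster has no gene or none is shown. Paralogues 2 to 5 of HoxA and 2 to 4 of HoxB are bright at all stages, and in HoxD paralogues 3 and 4 brighten at E12.5 and paralogues 8 and 9 at E14.5 and E16.5.

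By cluster, HoxD was the one whose mean summed level was higher at E16.5 than at E9.5. It came to 0.108 ± 0.0239 RPKM in E9.5 hearts and 0.0993 ± 0.0175 in E10.5 hearts, then to 0.544 ± 0.145 in E12.5, 0.568 ± 0.0922 in E14.5 and 0.87 ± 0.14 in E16.5 hearts (SD, n = 3, 4, 4, 3 and 4). Every library from E12.5 on lay above every library of E9.5 and E10.5, with 0.377 RPKM as the lowest later sum and 0.132 as the highest earlier one. HoxB was highest in E9.5 hearts, at 4.71 ± 1.02 RPKM, with 2.44 ± 0.624 in E10.5, 2.71 ± 0.41 in E12.5, 3.17 ± 0.274 in E14.5 and 2.45 ± 0.368 in E16.5 hearts. No E16.5 library reached the lowest E9.5 library in this sum (2.75 against 3.56 RPKM). HoxA had stage means between 1.84 and 2.76 RPKM with SDs of 0.143 to 0.675, and its lowest mean was that of E10.5. HoxC was at 0.194 ± 0.024 RPKM in E16.5 hearts and 0.462 ± 0.197 in E9.5 hearts. These sums were not tested.

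**Figure D2:**
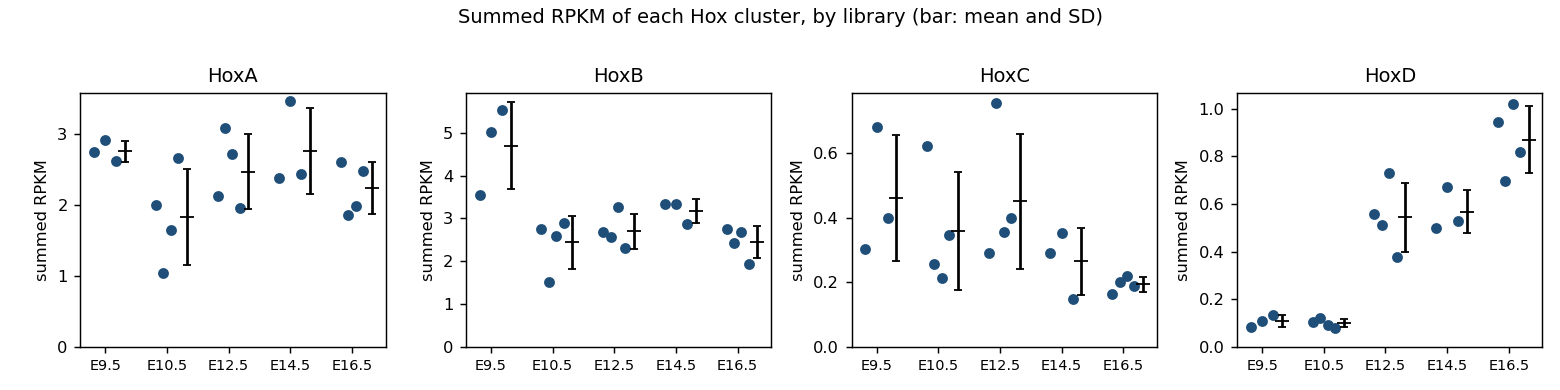
Summed RPKM of the members of each cluster in each library (points) with stage mean and SD (bars). HoxD libraries sit at 0.0786 to 0.132 RPKM at E9.5 and E10.5 and at 0.377 to 1.02 from E12.5 on, while HoxB is highest at E9.5.

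By paralogue number, paralogues 1 to 3 made up 51.8% of all Hox RPKM in E9.5 hearts, 51% in E10.5, 49.4% in E12.5, 42.3% in E14.5 and 35.3% in E16.5 hearts. Paralogues 4 and 5 stayed between 42.9% and 47.6%. The share of paralogues 6 to 8 was 2.12%, 3.18%, 3.36%, 9.42% and 12.4% over the same stages, and that of paralogues 9 to 13 was between 2.86% and 4.69%. Most of paralogues 6 to 8 at E16.5 was the single gene Hoxd8, with 0.508 of a mean sum of 0.709 RPKM. It had 0.254 of 0.632 RPKM at E14.5 and 0.0197 of 0.176 RPKM at E9.5. These shares are descriptions over genes of very different levels and carry no test.

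Over the whole course, 4 of the 16 members tested rose and 7 fell in E16.5 hearts relative to E9.5 hearts, where 32.1% of all genes tested rose and 32.8% fell. Hoxd4, Hoxd8, Hoxb9 and Hoxa3 rose, and Hoxb1, Hoxc5, Hoxa9, Hoxb3, Hoxb2 and Hoxa4 were among those that fell. The median log2 change of the 16 was -0.72, against -0.01 over all genes tested. All 3 HoxD genes tested had positive log2 changes, as had 3 of 6 in HoxA, 1 of 5 in HoxB and none of 2 in HoxC. The HoxD genes and Hoxb9 passed the filter only through libraries of E12.5 or later. Hoxb1 passed only through E9.5 libraries, and Hoxc5 only through libraries of E12.5 or earlier. Their signs were thus partly built in, and these tallies draw no contrast between clusters. Any difference among the 5 stages passed for 12 of the 16, near the 71.7% of all genes that did, and Hoxa4, Hoxa5, Hoxb4 and Hoxc4 did not pass. Without the 5 libraries low in macrophage-type transcripts, Hoxd4 and Hoxd8 still rose and Hoxb1, Hoxc5, Hoxa9, Hoxb3 and Hoxb2 still fell, while Hoxb9, Hoxa3 and Hoxa4 did not pass.

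**Figure D3:**
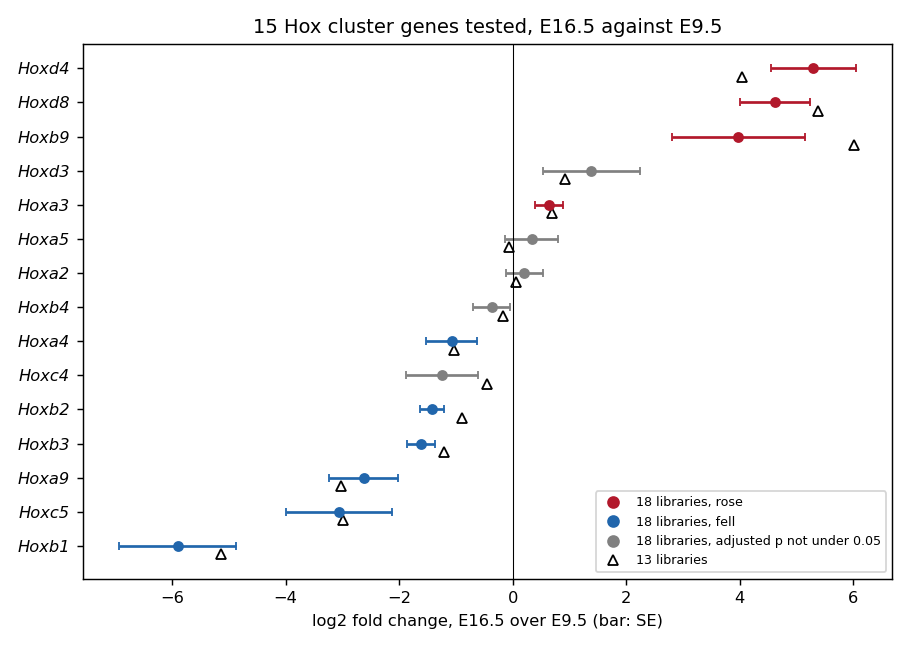
Log2 fold change of 15 of the 16 members tested, E16.5 over E9.5, with SE (circles, 18 libraries) and the value without the 5 libraries low in macrophage-type transcripts (triangles, 13 libraries). Hoxd4 and Hoxd8 are farthest to the right among the 18-library values, and Hoxb1 farthest to the left.

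Hoxb1, which patterns the hindbrain and marks second heart field progenitors, was counted mainly at E9.5. It had 13, 22 and 27 counts in the E9.5 libraries, taken in replicate order as throughout. There were 2, 0, 1 and 5 at E10.5, 1, 1, 6 and 0 at E12.5, 5, 0 and 2 at E14.5 and 0, 0, 1 and 0 at E16.5. Each E9.5 library exceeded every later library, and within E9.5 the lowest was the 1 library with macrophage-type transcripts.

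Hoxb1 fell in E10.5 relative to E9.5 hearts, with 0.0505 ± 0.0568 CPM at E10.5 (SD, n = 4) and 0.668 ± 0.255 CPM at E9.5 (n = 3). The log2 fold change was -3.66 (SE 0.759, edgeR adjusted p = 0.00191). Since Hoxb1 passed the filter through its E9.5 libraries alone, the fit with no filter on low counts is given too. There the log2 change was -3.64 (SE 0.748, edgeR adjusted p = 0.000761). Between E16.5 and E9.5, with 1 count against 62, the ratio was 0.0119 (95% exact counting interval 0.000295 to 0.0685). Such counting intervals, here and below, pool the counts of a stage and leave out the spread among its libraries. The Hoxb1 part of the genome, chr11:96365752-96368256, overlaps no other annotated exon.

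Hoxb2, which acts with Hoxb1 in the hindbrain, was also highest at E9.5, at 3.8, 5.42 and 7.24 CPM. It had 3.16, 2.12, 2.65 and 2.6 CPM at E10.5, 2.25, 2.05, 2.41 and 2.53 at E12.5, 2.37, 2.64 and 2.62 at E14.5, and 2.56, 1.79, 2.16 and 1.66 at E16.5. Every E9.5 library was above every later one, and the later stages overlapped. The lowest E9.5 library was again the 1 with macrophage-type transcripts. Hoxb2 fell by 1.06 on the log2 scale in E10.5 relative to E9.5 hearts (SE 0.204, edgeR adjusted p = 0.00102) and by 1.42 in E16.5 relative to E9.5 hearts (SE 0.207, edgeR adjusted p = 5.65e-06). Without the 5 libraries the change between E16.5 and E9.5 was -0.89 (edgeR adjusted p = 0.00609).

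**Figure D4:**
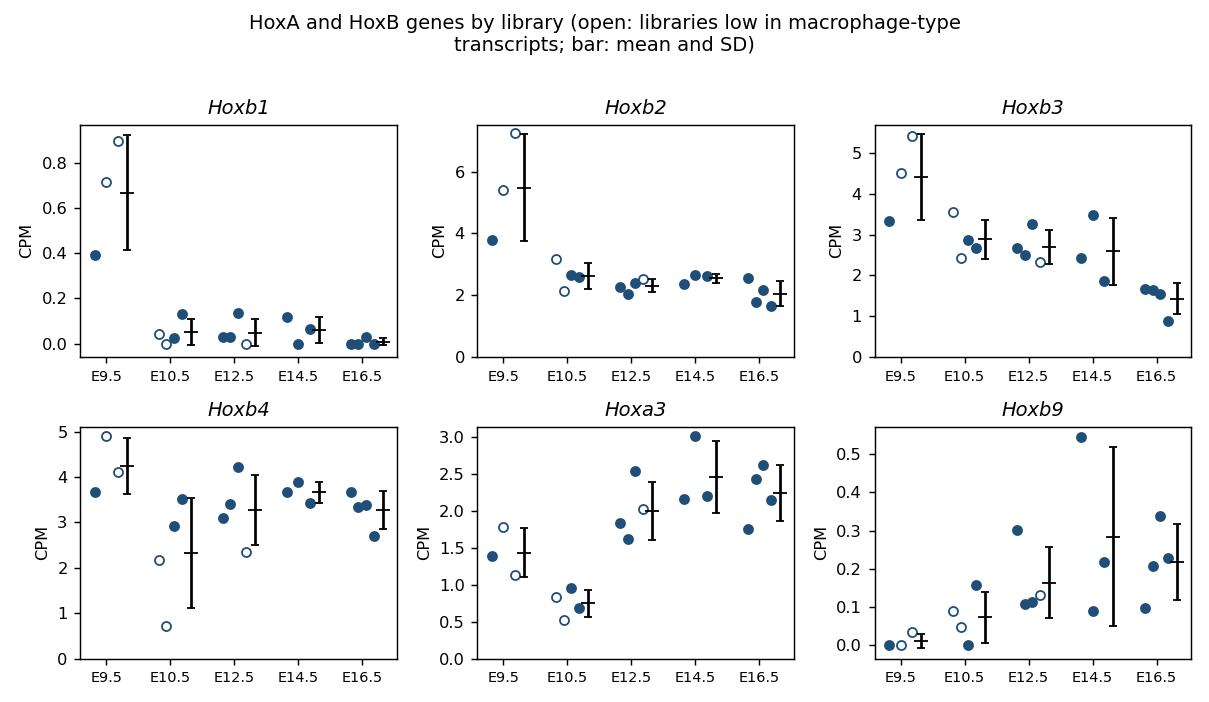
CPM of Hoxb1, Hoxb2, Hoxb3, Hoxb4, Hoxa3 and Hoxb9 in each library (points; open points are the 5 libraries low in macrophage-type transcripts) with stage mean and SD (bars). Hoxb1 and Hoxb2 are highest in the E9.5 libraries, Hoxb3 is lowest at E16.5 and Hoxa3 is lowest at E10.5.

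Between E10.5 and E9.5, 3 of the 16 members fell (Hoxb1, Hoxb2 and Hoxa3) and none rose, where 7.62% of all genes tested fell and 10.6% rose. Of these, Hoxb1 had passed the filter through its E9.5 libraries alone. The median log2 change of the 16 was -0.47, against -0.00 over all genes. Without the 5 libraries none of the 3 passed, with log2 changes of -2.26 for Hoxb1, -0.53 for Hoxb2 and -0.76 for Hoxa3 and edgeR adjusted p of 0.26 to 0.292. Within the 5 libraries alone all 3 fell, with log2 changes of -4.91, -1.23 and -1.06. Leaving out E9.5 replicate 2 ended the call for Hoxa3 (log2 change -0.74, edgeR adjusted p = 0.0784).

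The summed level of second heart field markers was also lower at E10.5 than at E9.5. The list of 6 summed to 225 to 245 CPM at E10.5 and to 260 to 323 CPM at E9.5, and all 6 were counted at both stages. Most of the sum was Mef2c, at 161 to 169 CPM at E10.5 and 181 to 217 CPM at E9.5. Sema3c overlapped, at 52.9 to 65.4 CPM at E10.5 and 54.7 to 71.2 CPM at E9.5. Fgf8, a growth factor of the outflow tract progenitors, was at 0.737 to 2.05 CPM at E10.5 against 3.97 to 7.33 CPM at E9.5. Isl1, their defining transcription factor, was at 5.77 to 8.01 CPM against 9.71 to 12.6 CPM. Pharyngeal arch markers (5 of 5 counted) summed to 59.7 to 68.3 CPM at E10.5 and 68.9 to 93.4 CPM at E9.5. Both sums were lower again at E12.5, at 164 to 188 CPM for the second heart field and 33.2 to 42.2 CPM for the pharyngeal arches. At E16.5 they were 132 to 154 and 8.94 to 11 CPM. Neural tube markers, a list of 5, summed to 0.312 to 1.41 CPM at E10.5 and 1.49 to 2.67 CPM at E9.5. At E12.5 that list was at 0.371 to 1.87 CPM and at E16.5 at 1.97 to 2.96 CPM. From E10.5 on the Hoxb2 stages overlapped, and Hoxa3 was higher at E12.5 than at E10.5. The part of any of these cell populations in the Hox values was not tested.

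Hoxb3, a neighbour of Hoxb2 and likewise a hindbrain gene, was spread over a longer course. It had 3.32, 4.51 and 5.41 CPM at E9.5, 3.56, 2.43, 2.86 and 2.68 at E10.5, 2.66, 2.49, 3.27 and 2.32 at E12.5, 2.42, 3.47 and 1.87 at E14.5, and 1.66, 1.64, 1.54 and 0.879 at E16.5. All 4 E16.5 libraries were below every other library. Hoxb3 fell by 0.86 on the log2 scale in E16.5 relative to E14.5 hearts (SE 0.249, edgeR adjusted p = 0.0207) and by 1.62 in E16.5 relative to E9.5 hearts (SE 0.247, edgeR adjusted p = 1.04e-05). The later step did not pass without E14.5 replicate 2 (log2 change -0.58, edgeR adjusted p = 0.173) or without E16.5 replicate 4 (-0.68, 0.0647).

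Of the exon length of Hoxb3, 52.9% overlaps the antisense gene Hoxb3os, as does 27.3% of Hoxb2. The strand setting of the counting is not given in the sources used here, so reads of the antisense gene may be counted for either. Hoxb3os itself fell, with 0.939 ± 0.298 CPM at E16.5 (SD, n = 4) and 3.07 ± 0.891 CPM at E9.5 (n = 3; log2 change -1.71, edgeR adjusted p = 8.02e-05). Its part in the values of Hoxb2 and Hoxb3 was not tested.

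Hoxb4, a regulator known from blood stem cells, was the highest Hox gene of these hearts. It had 3.68, 4.9 and 4.12 CPM at E9.5, 2.17, 0.722, 2.92 and 3.52 at E10.5, 3.1, 3.41, 4.22 and 2.35 at E12.5, 3.67, 3.89 and 3.43 at E14.5 and 3.68, 3.33, 3.39 and 2.7 at E16.5. E10.5 replicate 2 stood lowest of the 18 libraries, and it also had the fewest Hox counts (371). The stage means ran from 2.33 ± 1.21 CPM at E10.5 (SD, n = 4) up to 4.23 ± 0.617 CPM at E9.5 (n = 3). The any-stage test did not pass (edgeR adjusted p = 0.181), which does not show that its level was constant. With the 5-library division as a term in the model it did (edgeR adjusted p = 0.0365). Blood progenitor markers (6 of 6 counted at every stage) summed to 54.3 to 56.4 CPM at E9.5, 68.5 to 81.1 at E10.5, 66.4 to 103 at E12.5, 41.5 to 56.1 at E14.5 and 26 to 34.9 at E16.5. Their part in the values of Hoxb4, and of Hoxa9 below, was not tested.

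Hoxb9, a gene of thoracic identity, was the 5′ HoxB gene that passed the filter, with few counts. It had 0, 0 and 1 counts at E9.5, 4, 2, 0 and 6 at E10.5, 11, 4, 5 and 5 at E12.5, 23, 4 and 7 at E14.5 and 3, 7, 11 and 7 at E16.5. Its libraries overlapped between neighbouring stages, while those of E16.5 and E9.5 were apart. With 28 counts in all at E16.5 against 1 at E9.5, the ratio was 20.6 (95% exact counting interval 3.4 to 841; log2 change 3.98, SE 1.17, edgeR adjusted p = 0.00575). Without the 5 libraries, which leaves E9.5 with a single library at 0 counts, it did not pass (edgeR adjusted p = 0.0561).

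In HoxA, the clearest course was that of Hoxa3, needed for the thymus, the parathyroid and the third pharyngeal arch artery. It had 1.39, 1.79 and 1.13 CPM at E9.5, 0.84, 0.529, 0.954 and 0.682 at E10.5, 1.84, 1.62, 2.54 and 2.03 at E12.5, 2.16, 3.02 and 2.21 at E14.5 and 1.76, 2.44, 2.62 and 2.15 at E16.5. All E10.5 libraries were below all libraries of the other stages. Hoxa3 fell by 0.93 on the log2 scale in E10.5 relative to E9.5 hearts (SE 0.247, edgeR adjusted p = 0.0118) and rose by 1.42 in E12.5 relative to E10.5 hearts (SE 0.228, edgeR adjusted p = 6.75e-05). The rise passed without the 5 libraries (log2 change 1.29, edgeR adjusted p = 0.00276). Within them, where E12.5 is left with 1 library, the log2 change was 1.56. The smaller rise in E16.5 relative to E9.5 hearts (log2 change 0.64, edgeR adjusted p = 0.0253) did not pass without the 5 libraries (0.70, 0.109). It was also lost on leaving out E9.5 replicate 1 or 3 or E16.5 replicate 2 or 3, with edgeR adjusted p of 0.0536 to 0.12.

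Between E12.5 and E10.5, 4 of the 16 members rose (Hoxd4, Hoxd3, Hoxa3 and Hoxa2) and none fell, where 20.0% of all genes tested rose and 18.1% fell. Of these, Hoxd3 and Hoxd4 had passed the filter only through libraries of E12.5 or later. In the fit with no filter on low counts both rose (edgeR adjusted p = 2.46e-08 and 2.95e-07). The median log2 change of the 16 was 0.35, against 0.01 over all genes. Hoxa2, which sets the identity of the second pharyngeal arch and is added here after its values were seen, was at 0.853 ± 0.155 CPM at E12.5 and 0.42 ± 0.202 CPM at E10.5 (SD, n = 4 each). Its log2 change was 1.02 (SE 0.296, edgeR adjusted p = 0.0102), and it did not pass without the 5 libraries (0.80, 0.128) or within them (1.20, 0.0884). Exons of Hoxa3 overlap other annotated exons over 27.1% of their length, and those of Hoxa2 over 15%.

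Hotairm1, a non-coding RNA of the HoxA cluster, was at 1.65 ± 0.166 CPM at E12.5 and 0.643 ± 0.0798 CPM at E10.5 (SD, n = 4 each; log2 change 1.35, edgeR adjusted p = 0.000199).

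Hoxa5, required for lung and airway development, was the highest HoxA gene and showed no stage difference past the threshold (any-stage edgeR adjusted p = 0.852). Its values were 1.42, 1.1 and 0.697 CPM at E9.5, 0.773, 0.457, 0.954 and 2.05 at E10.5, 0.603, 2.05, 0.749 and 0.686 at E12.5, 1.04, 1.63 and 1.15 at E14.5 and 1.86, 1.13, 1.2 and 1.24 at E16.5. All stages overlapped, and the highest libraries were E10.5 replicate 4 and E12.5 replicate 2, both at 2.05 CPM, and E16.5 replicate 1 at 1.86 CPM. Foregut and lung markers were low throughout (list of 7, summed level at most 6.82 CPM, Sftpc at 0 in E9.5 and E12.5 hearts). They summed to 1.71 CPM in that E12.5 library, against 1.18 to 1.27 CPM in the other E12.5 libraries. In E10.5 replicate 4 the sum was 1.84 CPM, beside 3.33, 1.7 and 2.1 CPM in the other E10.5 libraries. In E16.5 replicate 1 it was 1.26 CPM, the lowest of its stage, beside 1.55, 1.5 and 6.82 CPM. The part of such cells in the Hoxa5 values was not tested.

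Hoxa9, a regulator of blood progenitors, was highest at E9.5. It had 30, 15 and 20 counts at E9.5, 13, 6, 3 and 17 at E10.5, 6, 7, 9 and 4 at E12.5, 13, 12 and 8 at E14.5, and 1, 6, 7 and 0 at E16.5. In CPM, every E9.5 library (0.487 or more) was above every later one (0.446 or less). Hoxa9 fell by 2.62 on the log2 scale in E16.5 relative to E9.5 hearts (SE 0.607, edgeR adjusted p = 0.000855). Hoxa4 fell too (log2 change -1.07, edgeR adjusted p = 0.0438), but its call was lost on leaving out any E9.5 library or E16.5 replicate 1, 2 or 3, with adjusted p of 0.0615 to 0.125 for those of E16.5 and 0.061 to 0.108 for those of E9.5.

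HoxC was carried by Hoxc4, Hoxc5 and Hoxc6, genes of the neck and upper trunk. Hoxc4 had 0.362, 1.07 and 0.465 CPM at E9.5, 0.928, 0.241, 0.371 and 0.472 at E10.5, 0.329, 1, 0.341 and 0.422 at E12.5, 0.19, 0.492 and 0.0311 at E14.5 and 0.16, 0.327, 0.401 and 0.163 at E16.5. The stages overlapped, and the any-stage test did not pass (edgeR adjusted p = 0.212). Hoxc5 had 9, 13 and 5 counts at E9.5, 23, 7, 3 and 9 at E10.5, 3, 23, 9 and 4 at E12.5, 2, 2 and 1 at E14.5 and 2, 0, 0 and 2 at E16.5. Both genes were highest of their stage in E9.5 replicate 2, E10.5 replicate 1 and E12.5 replicate 2. Liver markers (4 of 4) summed to 54.3 CPM in that E9.5 library and at most 1.19 CPM in the other 2, to 4.15 CPM in that E10.5 library and at most 0.567 in the other 3, and to 1.05 CPM in that E12.5 library, within its stage. Their part in the HoxC values was not tested. Hoxc5 fell in E16.5 relative to E9.5 hearts (log2 change -3.06, SE 0.937, edgeR adjusted p = 0.00763).

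In HoxD, Hoxd3 and Hoxd4, genes of the neck vertebrae, were counted in quantity from E12.5 on, while Hoxd8 and Hoxd9, genes of the trunk, were highest at E16.5.

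Hoxd3 peaked at E12.5. It had 2, 2 and 0 counts at E9.5, 3, 0, 1 and 3 at E10.5, 38, 39, 75 and 30 at E12.5, 14, 35 and 9 at E14.5 and 3, 6, 5 and 1 at E16.5. Every E12.5 library, at 0.792 to 1.7 CPM, was above every library of the other stages, of which the highest was 0.783 CPM in E14.5 replicate 2. Hoxd3 rose in E12.5 relative to E10.5 hearts, with 1.15 ± 0.389 CPM at E12.5 and 0.0429 ± 0.0362 CPM at E10.5 (SD, n = 4 each; log2 change 4.64, SE 0.576, edgeR adjusted p = 3.8e-06).

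Hoxd3 then had 0.332, 0.783 and 0.28 CPM at E14.5 and 0.0961, 0.179, 0.154 and 0.0326 CPM at E16.5. The log2 change in E14.5 relative to E12.5 hearts was -1.28 (SE 0.466, edgeR adjusted p = 0.0728), which passed without the 5 libraries (-1.41, 0.0269). In E16.5 relative to E14.5 hearts Hoxd3 fell by 1.99 (SE 0.567, edgeR adjusted p = 0.0187), with no overlap between the stages. That call was lost without E14.5 replicate 2 (log2 change -1.37, edgeR adjusted p = 0.175) or E16.5 replicate 4 (-1.70, 0.0601). Relative to E9.5, E16.5 hearts did not differ past the threshold in Hoxd3 (edgeR adjusted p = 0.164).

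Hoxd4 appeared with Hoxd3 but stayed. It had 1, 0 and 0 counts at E9.5, 1, 0, 1 and 0 at E10.5, 19, 15, 24 and 13 at E12.5, 23, 18 and 9 at E14.5 and 22, 14, 24 and 10 at E16.5. The 3 later stages overlapped one another and none overlapped the 2 earlier ones. In E12.5 relative to E10.5 hearts Hoxd4 rose (log2 change 4.87, SE 0.616, edgeR adjusted p = 4.74e-06), and with 71 counts at E12.5 against 2 at E10.5 the ratio was 37.2 (95% exact counting interval 9.92 to 313). In E16.5 relative to E9.5 hearts the ratio was 51.4 (8.94 to 2060), from 70 counts against 1.

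**Figure D5:**
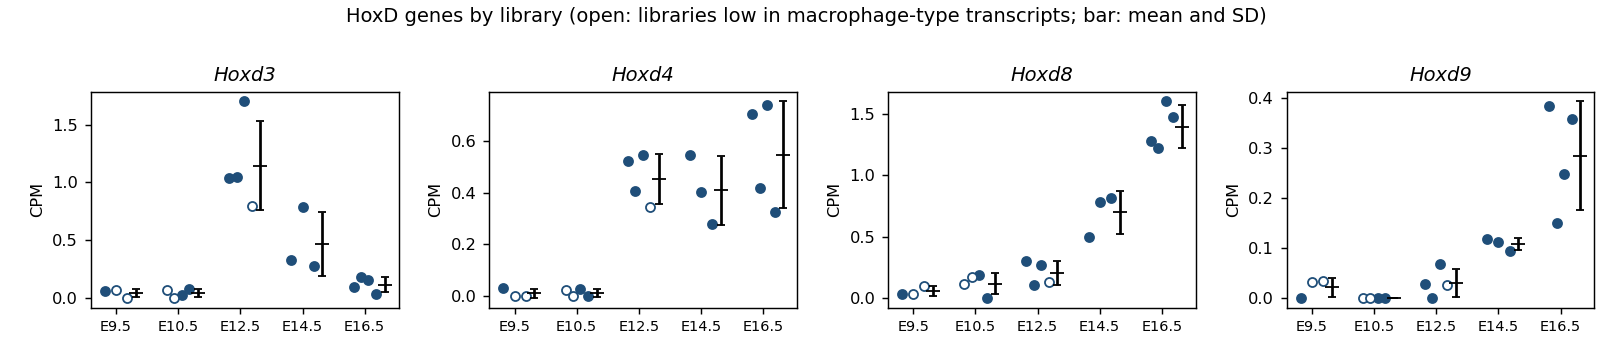
CPM of Hoxd3, Hoxd4, Hoxd8 and Hoxd9 in each library (points; open points are the 5 libraries low in macrophage-type transcripts) with stage mean and SD (bars). Hoxd3 is highest at E12.5 and at or below 0.179 CPM at E16.5, Hoxd4 stays between 0.28 and 0.74 CPM from E12.5 on, and Hoxd8 and Hoxd9 are highest at E16.5.

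The counts of Hoxd3 and Hoxd4 parted after E12.5, a pattern described after its values were seen and therefore given with no test. Hoxd4 took 88%, 70%, 82.8% and 90.9% of the counts of the pair in the E16.5 libraries, against 33.3%, 27.8%, 24.2% and 30.2% in the E12.5 libraries. The mean share was 82.9% ± 9.25 at E16.5 and 28.9% ± 3.85 at E12.5 (SD, n = 4 each). At E14.5 the shares were 62.2%, 34% and 50%, between the other 2 stages. This compares counts and not lengths of transcript.

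The annotated exons of this pair are shared in good part. Hoxd3 lies at chr2:74711927-74748442 and Hoxd4 at chr2:74711929-74729160, and 62.8% of the exon length of Hoxd3 and 52.3% of that of Hoxd4 overlap another gene, the pair's own partner and Gm28230 among them. The RefSeq start of Hoxd4 used for the sequence above lies within that span. How reads in shared exons were assigned is not given in the sources used here, so the level of either gene is uncertain.

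The summed level of the body wall, somite and limb list, largely mesenchymal transcripts, was also higher at E12.5 than at E10.5. The list of 7 summed to 60.5 to 83.9 CPM at E12.5 and 16.6 to 20.5 CPM at E10.5. Meox1, a homeobox gene of somites, was at 34 to 50 CPM against 5.36 to 7.3 CPM, and Prrx1, of limb and other mesenchyme, at 21.2 to 30 CPM against 9.01 to 11.5 CPM. Tcf15 was at 2.07 to 4.64 CPM against 0.267 to 0.809 CPM, and Pax3 at 0.0825 to 0.185 CPM against at most 0.027 CPM. Pitx1 overlapped, at 0.416 to 0.768 CPM against 0.679 to 1.89 CPM. Myod1 and Myf5, which define skeletal muscle precursors, had no count in any library of either stage. The list stayed high afterwards, at 75.2 to 81.3 CPM at E14.5 and 77.8 to 95.9 CPM at E16.5. Hoxd4 stayed too, whereas Hoxd3 was at 0.115 ± 0.0651 CPM at E16.5 and 1.15 ± 0.389 CPM at E12.5 (SD, n = 4 each). The part of such cells in the Hoxd3 and Hoxd4 values was not tested.

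Hoxd8 was higher at each stage mean than at the one before. It had 1, 1 and 3 counts at E9.5, 5, 7, 7 and 0 at E10.5, 11, 4, 12 and 5 at E12.5, 21, 35 and 26 at E14.5 and 40, 41, 52 and 45 at E16.5. All E14.5 libraries (0.498 to 0.81 CPM) were above all earlier ones, and all E16.5 libraries (1.22 to 1.6 CPM) above all those of E14.5. Between E14.5 and E12.5, Hoxd8 was the 1 member of 16 that rose (log2 change 1.75, SE 0.464, edgeR adjusted p = 0.0145) and none fell, where 6.29% of all genes tested rose and 8.56% fell. Leaving out E14.5 replicate 2 or 3 ended this call (edgeR adjusted p = 0.0599 and 0.0593).

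Between E16.5 and E14.5, Hoxd3 and Hoxb3 were the 2 members of 16 that fell and none rose, where 8.74% of all genes tested fell and 10.1% rose. Hoxd8 had a log2 change of 1.0 there and did not pass (SE 0.42, edgeR adjusted p = 0.106). Over the whole course, E16.5 against E9.5, Hoxd8 rose by 4.62 (SE 0.61, edgeR adjusted p = 1.66e-06), and by 5.38 without the 5 libraries (0.00025). The median log2 changes of the 16 members were 0.17 for E14.5 over E12.5 and -0.38 for E16.5 over E14.5, against 0.00 and -0.02 over all genes.

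Hoxd9, the next gene 5′ of Hoxd8, did not pass the filter and was added after its values were seen. It had 0, 1 and 1 counts at E9.5, none at E10.5, 1, 0, 3 and 1 at E12.5, 5, 5 and 3 at E14.5 and 12, 5, 8 and 11 at E16.5. With 36 counts at E16.5 against 2 at E9.5, the ratio was 13.2 (95% exact counting interval 3.41 to 113). In the fit with no filter on low counts, which holds 36 of the 39 members, it rose (log2 change 3.57, SE 0.927, edgeR adjusted p = 0.00202). Hoxd10, its next neighbour, had at most 1 count in any library.

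The summed level of autonomic neuron markers was also higher at E16.5, though not that of each marker. The autonomic neuron list of 7 (1 at 0 in E9.5 hearts, the others counted) summed to 35.6 to 43.8 CPM at E16.5 and 8.21 to 24.9 CPM at E9.5. Most of the sum was Stmn2, a general neuronal gene, at 25.8 to 34.3 CPM at E16.5 and 1.97 to 16.3 CPM at E9.5. Of the enzymes of noradrenaline synthesis, Dbh was at 1.64 to 2.47 CPM at E16.5 and 0.091 to 0.194 CPM at E9.5, whereas Th was at 0.088 to 0.43 CPM at E16.5 and 1.03 to 1.81 CPM at E9.5. Elavl4, of neurons in general, overlapped at 3.93 to 5.31 CPM at E16.5 and 4.2 to 6.43 CPM at E9.5. The E9.5 library with macrophage-type transcripts had the 24.9 CPM and the other 2 had 8.21 and 9.46 CPM, and the same order held at E10.5 and E12.5. Neural crest and Schwann markers (list of 6, 1 at 0 in E9.5 hearts) overlapped, at 25.7 to 32.5 CPM at E16.5 and 14.7 to 30.8 CPM at E9.5. The part of nerve cells in the Hoxd8 and Hoxd9 values was not tested.

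Among paralogues 6 to 8, Hoxa7, Hoxb7 and Hoxb8 were most counted at E14.5, a pattern described after their values were seen. By stage mean, Hoxb6 and Hoxc6 were also highest at E14.5, but Hoxa6 and Hoxd8 at E16.5 and Hoxc8 at E9.5. Hoxa7 had 6, 10 and 3 counts at E14.5 and 0 to 5 in any other library. Hoxb7 had 7, 5 and 3 counts at E14.5 and 0 to 2 elsewhere, and Hoxb8 had 9, 5 and 6 counts at E14.5 and 0 to 7 elsewhere. All 3 pattern the trunk, and each passed the any-stage test in the fit with no filter (edgeR adjusted p = 0.0222, 0.0153 and 0.0108). Of the 33838 genes in that fit, 13603 passed this test. Hoxa6, Hoxb6, Hoxc6 and Hoxc8 did not pass it (edgeR adjusted p of 0.0771 to 0.697). Apart from Hoxd8, none passed between E14.5 and a neighbouring stage, and the counts of these others are close to the limit of detection.

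Among the Hox cofactors, 7 of 9 fell and 1 rose in E16.5 relative to E9.5 hearts, where 32.8% of all genes tested fell and 32.1% rose. Pbx2 was at 94.6 ± 4.2 CPM at E16.5 and 207 ± 3.98 CPM at E9.5 (log2 change -1.13, edgeR adjusted p = 4.79e-12). Meis3 was at 12.1 ± 0.31 CPM and 25.8 ± 3.61 CPM (-1.10, 4.05e-08), and it fell already between E10.5 and E9.5 (log2 change -0.80, edgeR adjusted p = 3.64e-05). Meis2 was at 58.1 ± 3.65 CPM and 102 ± 6.43 CPM (-0.81, 6.85e-08; SD, n = 4 and 3). The median log2 change of the 9 was -0.58, against -0.01 over all genes.

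Genes of retinoic acid supply, loss and response, with the Cdx genes, counted 5 risen and 1 fallen of 9 tested (13 listed) in E16.5 relative to E9.5 hearts, beside 32.1% and 32.8% of all genes. Aldh1a2, which makes retinoic acid and is also an epicardial marker, was at 33.3 ± 4.21 CPM at E16.5 and 3.71 ± 1.13 CPM at E9.5 (log2 change 3.16, edgeR adjusted p = 1.41e-10). The receptor gene Rarg was at 20.1 ± 2.28 CPM and 7.95 ± 1.15 CPM (1.34, 6.06e-09), and the retinoic acid degrading Cyp26b1 at 8.6 ± 0.897 CPM and 22.6 ± 3.27 CPM (-1.39, 2.58e-09; SD, n = 4 and 3). Cdx1, Cdx2 and Cdx4, inducers of trunk Hox genes, had at most 3 counts in any library. Epicardial markers (7 of 7 counted, Aldh1a2 among them) summed to 300 to 384 CPM at E16.5 and 149 to 211 CPM at E9.5. In between, their sum was higher, at 458 to 535 CPM at E10.5 and 424 to 525 CPM at E12.5. Aldh1a2 itself had means of 28.3 CPM at E10.5 and 47.7 CPM at E12.5. The median log2 change of the 9 was 0.48, and that of all genes -0.01.

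Among 19 Polycomb and trithorax genes, which keep Hox clusters silent or active, 7 rose and 11 fell in E16.5 relative to E9.5 hearts, with a median log2 change of -0.44. Of all genes, 32.1% rose and 32.8% fell, with a median of -0.01. Ezh2, the Polycomb methyltransferase, was at 63.1 ± 1.35 CPM at E16.5 and 115 ± 4.05 CPM at E9.5 (log2 change -0.87, edgeR adjusted p = 2.52e-09). Cbx2 was at 29.2 ± 2.49 CPM and 62.4 ± 10.8 CPM (-1.10, 1.92e-08), and Bmi1, of the same silencing complex, at 60 ± 1.58 CPM and 33.8 ± 2.92 CPM (0.83, 1.85e-08; SD, n = 4 and 3). None of the 19 passed between E10.5 and E9.5, where 10.6% of all genes rose and 7.62% fell. Between E12.5 and E10.5, 6 rose and 7 fell, where 20.0% of all genes rose and 18.1% fell.

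Inside the clusters, 6 of 43 non-coding genes passed the filter on low counts, of which 2 rose between E12.5 and E10.5 (Hotairm1 and Gm15050), where 20.0% of all genes rose, and 2 fell between E16.5 and E9.5 (Hoxb3os and Gm27861), where 32.8% fell. Gm27861 also fell between E16.5 and E14.5, with 0.0392 ± 0.0405 CPM at E16.5 (SD, n = 4) and 0.415 ± 0.0942 CPM at E14.5 (n = 3; log2 change -3.31, edgeR adjusted p = 0.0025). Hotair, of HoxC, had at most 1 count in any library. Outside the clusters, 12 of 16 neighbouring protein-coding genes were tested, and 4 rose and 6 fell between E16.5 and E9.5, where 32.1% of all genes rose and 32.8% fell. Calcoco1, beside HoxC, was at 131 ± 7.38 CPM at E16.5 and 45.3 ± 2.92 CPM at E9.5 (SD, n = 4 and 3; log2 change 1.53, edgeR adjusted p = 9.41e-13). Evx1 and Evx2, homeobox genes at the 5′ ends of HoxA and HoxD, had at most 4 counts in any library, like the 5′ Hox genes beside them.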

How the data were processed

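RNA-seq covered 18 libraries of mouse embryonic hearts at 5 stages. The authors deposited raw counts of reads per Ensembl gene, one file a library. Subread 1.5.2 with featureCounts, STAR 2.5.2b and Trimmomatic 0.36, and the builds GRCm38 and mm10, are listed per the submitters' processing notes. The sources used here give no strand setting, rule for shared exons or annotation release.

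Symbols, exon lengths and overlaps came from GENCODE M21 (48970 of 49315 identifiers matched) and start windows from RefSeq. The members and lists were chosen with earlier results of these data known. Counts went into edgeR 4.0.16 (R 4.3.3) with filterByExpr, TMM and a quasi-likelihood model with a mean per stage over all 18 libraries, adjusted by Benjamini-Hochberg at 0.05. The model was tested on simulated data. Some genes are not reported here. The named members were the highest of each cluster by RPKM, the 3 largest rises and falls of each comparison and the 6 smallest any-stage p. Of other lists, the 3 smallest p were named. SE is the log2 change divided by the root of F. Alternatives used DESeq2 1.42.0, limma 3.58.1, other scalings, filters, a replicate block and left-out libraries. No library pair agreed within sampling noise.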

Additional observations from a re-analysis of the deposited data

Results flagged for a closer look

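Among 15 of the members tested, 45 groups of 4 libraries (E10.5, E12.5 and E16.5) were searched for a library far from the others by Dixon's test at 95%, and 6 stood apart. Chance alone flags about 1 in 20 groups of normally distributed values. Groups with counts near 0 depart from that, so the rate to set beside the 6 is not known. In E12.5 hearts, Hoxa5 was at 2.05 CPM and Hoxc4 at 1 CPM in replicate 2, where the nearest other libraries had 0.749 and 0.422 CPM. In E12.5 replicate 1, Hoxb9 was at 0.302 CPM, above the next at 0.132 CPM. In E16.5 hearts, Hoxa5 was at 1.86 CPM in replicate 1 with the next at 1.24 CPM, and Hoxb3 at 0.879 CPM in replicate 4 with the next at 1.54 CPM. Hoxb1 was at 0.0309 CPM in E16.5 replicate 3, which is its 1 count at that stage.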

How the results depend on the processing

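No called Hox gene changed sign under any alternative. The count of members past the threshold in E10.5 over E9.5, 3 as reported, was 5 with DESeq2, 6 with limma-voom, 6 with the 5-library division as a term, 0 without the 5 libraries and 5 within them, and 2 to 6 on leaving out single libraries. In E12.5 over E10.5 (4 reported) it was 2 with a minimum of 1 CPM in 3 libraries, 2 within the 5 libraries and 4 to 5 leaving out single libraries. In E14.5 over E12.5 (1) it was 2 with limma-voom, 2 with the division as a term, 3 without the 5 libraries and 0 to 2 leaving out single libraries. In E16.5 over E14.5 (2) it was 0 to 3 leaving out single libraries. In E16.5 over E9.5 (11) it was 6 at the 1 CPM minimum and 8 to 12 leaving out single libraries, and for any stage difference (12) 6 at that minimum and 10 to 14. The 1 CPM minimum left 9 members in the test, and all 13 calls it could retest passed. The other causes were not tested. Library totals in place of TMM moved the median of all genes by -0.13 (log2) in E16.5 over E14.5 and by less elsewhere, and no Hox call changed.

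Replicate numbers did not pair the libraries, since same-numbered deviations correlated at -0.779 to 0.665 and exceeded 0.1 in 8 of 33 pairs. With the replicate number as a block, E16.5 over E14.5 had 1 call in place of 2 (Hoxd3, log2 change -1.85, adjusted p = 0.0501 in edgeR), and no other call changed. Most members have under 100 counts in every library, which limits small changes.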
